A study of Mus musculus with 2 samples.

Results

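The genes described here are the 102 rows of a gene count table whose start lies on mouse chromosome 16 between 10 and 20 Mb (GRCm38, GENCODE annotation) and whose raw count reached 25 in at least 1 of 2 RNA sequencing libraries. They are 102 of 228 rows in this stretch and of 15916 rows of the whole table that reached the same minimum. The knockdown library came from 46C mouse embryonic stem cells in which linc1557, a long noncoding RNA, was knocked down by a hairpin in the pLKO.1-TRC vector, and the control library from 46C cells with a control hairpin. Both cultures had feeders, fetal bovine serum and LIF, the cytokine that holds such cells undifferentiated, both were selected with puromycin, and both came from picked, stably infected clones. There was 1 library in each group, so no test across replicates could be made, no p-value is given, and nothing is known of the spread between clones or cultures. The members were chosen by position and by their raw counts in these same libraries, and the stretch itself was taken up with its low common ratio already known. The ratios are therefore a description, and the question followed below is whether the shift was even or carried by some genes.

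Clustered genes of this stretch are known mainly from human genetics. Its later part corresponds to the human region whose loss causes DiGeorge syndrome, a developmental disorder of the heart, thymus and palate, in which Tbx1 is the best known dosage-sensitive gene and Dgcr8, Ranbp1, Hira and Crkl are neighbours. The earlier part holds genes of many unrelated functions, among them the DNA repair genes Ercc4 and Prkdc, the replication gene Mcm4 and the translation termination factor gene Gspt1. Neighbouring genes on opposite strands in such compact stretches can share a start region.

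The deposited values were raw read counts, 26693282 in the knockdown library and 23146210 in the control library. Each count was scaled by TMM, a trimmed mean that equalises the bulk of genes between libraries, and a ratio is knockdown over control on the log2 scale with its exact 95% Clopper-Pearson interval, which covers counting error only. A call needed a difference of 2-fold or more together with an interval that excluded 1. No row could be matched to linc1557, which is not analysed here. Embryonic stem cell markers were present in both libraries, with summed levels of 1285 RPKM (reads scaled for gene length and library size) after knockdown and 1007 RPKM with the control hairpin, and none of the 10 was called. Feeder fibroblast markers summed to 346 RPKM after knockdown and 691 RPKM with the control hairpin, and none of the 25 was at 0. Of the 25, 17 were called lower in the knockdown library and none higher, with a median log2 ratio of -1.71. Among all 15916 genes 9.44% were called lower and 4.81% higher. Dcn was the only fibroblast marker above 0, with 511 counts after knockdown and 403 with the control hairpin (0.26, 0.06 to 0.45). Smooth muscle markers summed to 57.6 RPKM after knockdown and 208 RPKM with the control hairpin, with 6 of 7 lower and none at 0. The other, Des, was above 0, with 277 counts after knockdown and 191 with the control hairpin (0.45, 0.18 to 0.72). Acta2, Tagln and Cnn1 are on both lists, so these results are not separate. Acta2 had 25.7 RPKM after knockdown and 100 RPKM with the control hairpin, and Tagln 18.6 and 64.3 RPKM. Of 8 macrophage markers 4 were lower and 1 was higher, with sums of 23.6 RPKM after knockdown and 29.2 RPKM with the control hairpin, and the higher one, Marco, had 135 counts after knockdown and 0 with the control hairpin. The labels speak of cells on feeders, and fewer cells of a type cannot be told apart from less RNA per cell. The part of these cells in the results on chromosome 16 was not tested.

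Most genes of the stretch were somewhat lower in the knockdown library. Of the 102 members, 79 (77.5%) had a log2 ratio below 0, where 48.0% of all 15916 genes did. The median was -0.35, with quartiles of -0.62 and -0.04, and the values ran between -1.80 and 1.14. The 15814 genes outside the stretch had a median of 0.03, with quartiles of -0.35 and 0.33. The interval lay wholly below 0 for 55 members (53.9%), against a background of 31.0%, and wholly above 0 for 6 (5.88%), against 32.8%. Large differences were not common. By the 2-fold rule 12 members (11.8%) were lower, beside 9.44% of all genes, and 1 member (0.98%) was higher, beside 4.81%. The share called lower was thus close to the background, and the stretch differed from other genes mainly in small ratios below 0 and in few ratios above it.

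**Figure D1:**
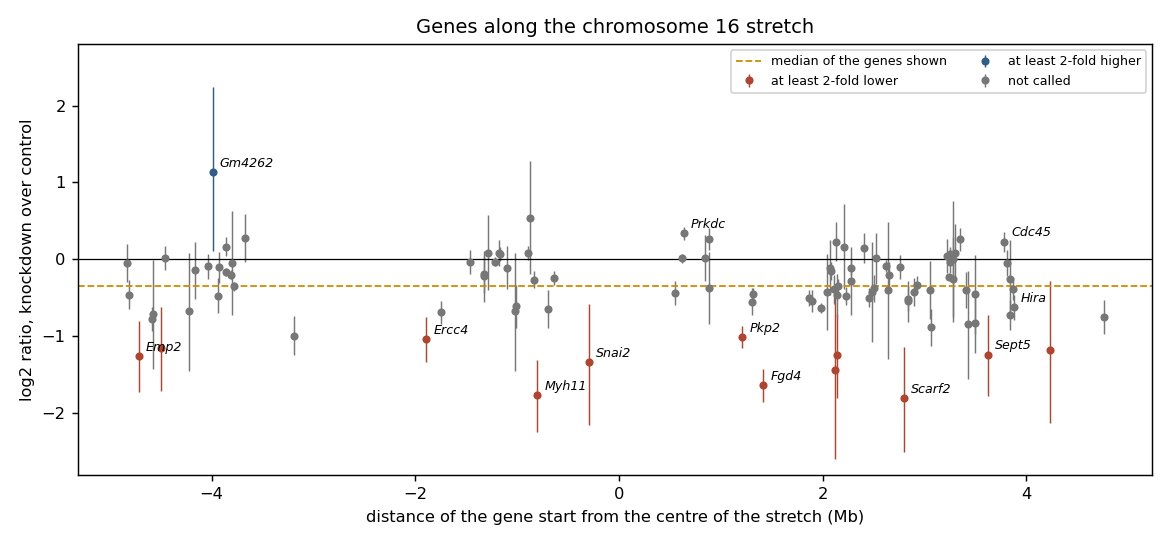
Log2 ratio of knockdown over control (y axis) for the 102 genes, by the distance of each gene's start from the centre of the stretch in Mb (x axis). Points are single genes, bars are 95% counting intervals, red marks the 12 genes called lower, blue the 1 called higher, and the dashed line is the median of -0.35, with 79 points below 0.

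The ratios of the members differed by more than counting error, and so did those of genes in general. If every member had shared 1 ratio, nearly all intervals would hold the median, but only 39 of 102 (38.2%) did, with 28 intervals wholly below it and 35 wholly above it. Over all genes 36.5% of the intervals held the median of all genes. Members thus scattered round their own median about as much as genes in general. These counts cannot tell an uneven shift from the usual scatter between genes, because the intervals cover counting error only. The distance between quartiles was 0.58 log2 units for the members and 0.68 for the genes outside, whereas counting error alone would give about 0.145 for the members. The difference between members and genes outside was not the same at all percentiles. At the 10th percentile the members stood at -1.04 and the genes outside at -0.96, a difference of -0.07. The difference was -0.27 at the 25th percentile, -0.37 at the median, -0.36 at the 75th and -0.54 at the 90th. At the lowest percentiles the order turned round. Members were higher by 0.23 at the 5th (-1.26 in the stretch, -1.49 outside) and by 1.11 at the 1st (-1.76 and -2.87). With 102 members, percentiles this low rest on few members.

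**Figure D2:**
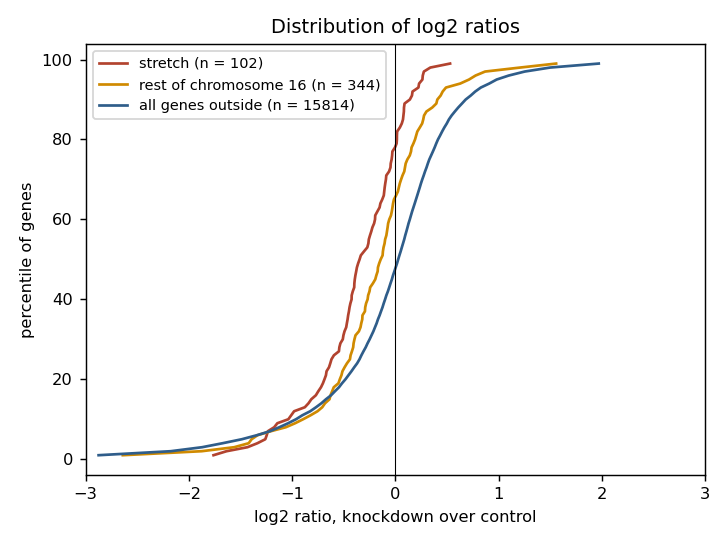
Percentile of genes (y axis) against log2 ratio of knockdown over control (x axis) for the 102 genes of the stretch, the other 344 genes of chromosome 16 and all 15814 genes outside the stretch. The curves of the stretch and of the genes outside cross under the 10th percentile (-1.04 for the stretch, -0.96 for the genes outside) and lie apart at the median (-0.35 and 0.03).

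With 79 of 102 members below 0, leaving out the called genes or any bin of 1 Mb could not bring the median above 0. Such values show only how far the median moved. Without the 13 called members in either direction the other 89 had a median of -0.25, and 67 of them (75.3%) were below 0. The 12 lower members made up 11.8% of the genes and 42.5% of the summed log2 ratios, so a mean rests on them more than a median does. Leaving out each bin of 1 Mb in turn kept the median between -0.38 and -0.26. Summed over all members, the stretch had 86300 counts after knockdown and 95204 with the control hairpin, a log2 ratio of -0.23. Without the 6 largest members that pooled value was -0.27.

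The shift was of like size at all expression levels. The 34 least abundant members, with a scaled level under 7.38 CPM (reads scaled for library size alone), had a median of -0.41, against -0.05 for 5896 genes outside the stretch in the same range. Among the 34 members of middle level the medians were -0.38 in the stretch and 0.02 outside, and among the 34 most abundant -0.23 and 0.07. The differences between stretch and outside were -0.36, -0.40 and -0.30. The least abundant group held 9 members called lower (26.5%, against 18.8% of the genes outside in the same range), the middle group 2 (5.88% against 5.78%) and the most abundant 1 (2.94% against 2.28%), so calls became fewer with level in the stretch as they did outside it. In the most abundant group, where counting error was smallest, 23 of 34 intervals (67.6%) lay wholly below 0, against 31.1% of the genes outside.

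**Figure D3:**
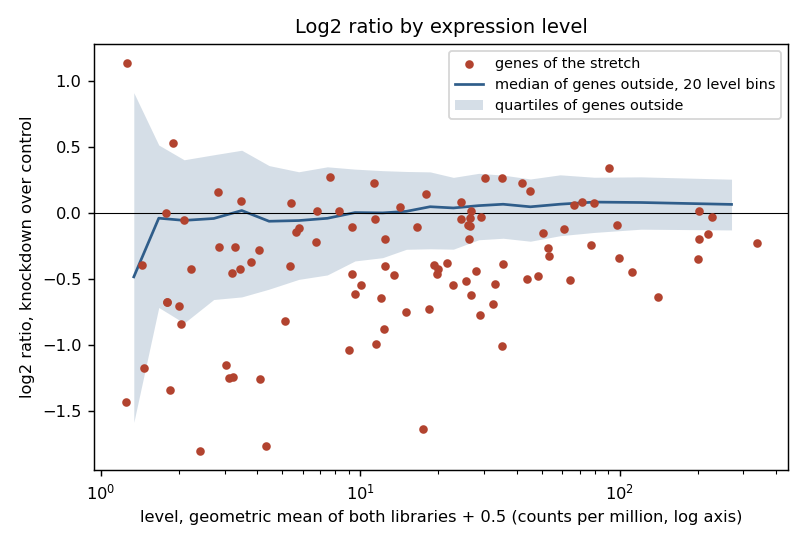
Log2 ratio of knockdown over control (y axis) against expression level in CPM on a log axis (x axis) for the 102 genes of the stretch, with the median and quartiles of the genes outside in 20 level bins. Points lie mostly under the line at every level, with medians of -0.41, -0.38 and -0.23 in the least, middle and most abundant 34 genes.

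The 6 lowest members by the nearer bound of the interval, leaving out predicted models, were genes of adhesion, contraction, repair and the cell surface. Fgd4 (ENSMUSG00000022788, 16416917 to 16600549, minus strand), which encodes an exchange factor for the small GTPase Cdc42, had 245 counts after knockdown and 718 with the control hairpin, being 3.11-fold lower (2.69 to 3.61). Myh11, the smooth muscle myosin heavy chain gene, had 52 counts against 166, 3.39-fold lower (2.47 to 4.73). It is also on the list of smooth muscle markers, of which 6 of 7 were lower, Myh11 itself among them. Scarf2, a scavenger receptor gene, had 25 counts against 82, 3.48-fold lower (2.20 to 5.69). Pkp2 (ENSMUSG00000041957), which encodes the desmosomal plaque protein plakophilin, had 623 counts against 1181, 2.01-fold lower (1.83 to 2.22). Emp2, an epithelial membrane protein gene, had 59 counts against 133, 2.40-fold lower (1.75 to 3.31). Ercc4 (ENSMUSG00000022545, 13109684 to 13150617, plus strand) encodes XPF, the nuclease that cuts beside damaged bases in nucleotide excision repair. It had 152 counts against 294, 2.05-fold lower (1.68 to 2.52). Pkp2 and Ercc4 stood near the threshold and were no longer called with DESeq2 size factors, which put Pkp2 at -0.97 and Ercc4 just short of 2-fold.

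The other lower members were Snai2, Sept5, Ccdc116, Dexi, Mir301b and the predicted gene Gm42870. Snai2, a transcription factor of the epithelial-mesenchymal switch that fibroblasts also express, had 21 counts after knockdown and 50 with the control hairpin (log2 ratio -1.34, -2.15 to -0.58). Sept5, a septin gene, had 45 against 100 counts (-1.24). Just outside the threshold was the phosphatase gene Cpped1, with 199 against 373 counts and a log2 ratio of -0.99, followed by Prodh, the proline dehydrogenase gene, at -0.88. The only member called higher was Gm4262, a lincRNA model with 28 against 12 counts that overlaps Litaf, so that without strand its reads cannot be told from those of Litaf. At the count minimum, the last to enter were Ccdc74a (21 against 26 counts), Gm4262 and Mir301b, and the first left out was Slc7a4 (24 against 20).

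At the opposite end, 6 members had intervals wholly above 0, and 5 of them were well-expressed genes with small ratios. Prkdc (ENSMUSG00000022672, 15637866 to 15842235, plus strand), the catalytic subunit of the DNA-dependent protein kinase that joins broken ends, had 2612 counts after knockdown and 1943 with the control hairpin (log2 ratio 0.34, 0.25 to 0.42). Spidr, a scaffold of homologous recombination, had 973 against 762 counts (0.27). Arvcf, a catenin of adherens junctions, had 834 against 654 (0.26), and Cdc45, a subunit of the replicative helicase, 1148 against 923 (0.23). Zc3h7a, a zinc finger gene, had 1209 against 1014 (0.17). None of these 5 reached 2-fold.

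Of the 6 members with the largest counts, 5 had ratios above the median of the stretch, and the interval of the other, Gspt1, held that median. Ranbp1, a cofactor of the nuclear transport GTPase Ran, had 7985 counts after knockdown and 8809 with the control hairpin, at levels of 187 and 219 RPKM (log2 ratio -0.23, -0.27 to -0.19). Rrn3, the initiation factor of RNA polymerase I, had 5750 against 5519 counts and a log2 ratio of -0.03 with an interval that holds 0. Rsl1d1, a nucleolar protein gene of ribosome formation, had 4824 against 5204 counts (-0.20), and Gspt1, the translation termination factor gene, 4518 against 5424 (-0.35). Mcm4, a subunit of the replicative helicase, had 5184 against 4829 counts (0.01). The intervals of Gspt1 and Ranbp1 lay wholly below that of Mcm4, so these abundant genes differed by more than counting error. Gm23935, annotated as a miRNA of 57 bases inside Zc3h7a, had 5307 against 5589 counts (-0.16). Its level was 3634 RPKM after knockdown and 4066 RPKM with the control hairpin. Zc3h7a, on the other strand, had 5.15 and 4.59 RPKM. The source of the reads of Gm23935 was not tested.

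Values differed by position within the stretch. The 1 Mb bins with at least 6 members had medians between -0.57 and 0.02. The longest run of neighbours below 0 held 12 members, the stretch between Pkp2 and Mir301b (16213318 to 17125167), with a median of -0.52 and 10 intervals wholly below 0. Within it, Dnm1l, the GTPase of mitochondrial fission, had 2431 counts after knockdown and 3114 with the control hairpin (-0.44), and Top3b, a topoisomerase gene, 1369 against 1828 (-0.50). That all 12 were below 0 follows from how the run was picked. Of the 12, 3 were called lower, beside 9.44% of all genes. The 10 intervals wholly below 0 stand beside 31.0% of all genes. Both counts come from a run picked for its sign.

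Directly before that run, the 5 members between Mcm4 and Spidr (15623897 to 16146851) had a median of 0.02, 1 of 5 below 0 and 2 intervals wholly above 0. The member below 0 there was Cebpd, a bZIP transcription factor gene, with 74 counts after knockdown and 90 with the control hairpin. Another flat group lay between Parn, a poly(A) ribonuclease gene, and Mpv17l (13537960 to 13949619), where 8 members had a median of -0.03, values between -0.22 and 0.09 and no interval that excluded 0. Further on, 11 neighbours between Smpd4 and Prodh were all below 0 (median -0.40, 9 intervals wholly below 0) and the 8 members between Zdhhc8 and Arvcf had a median of 0.03. These groups were picked after their values were seen. Medians this near 0 change sign with total counts alone, which moves every ratio by -0.12, or with DESeq2 size factors, which moves every ratio by 0.04. Over all 101 pairs of adjacent members the median difference between neighbours was 0.34 log2 units, and over 15812 adjacent pairs of the genome it was 0.47.

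On the plus strand 46 of 54 members were below 0 (85.2%), with a median of -0.39, and on the minus strand 33 of 48 (68.8%), with a median of -0.29. The difference was not tested, and several members overlap a partner on the other strand.

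Genes of the DiGeorge region showed the same mixture. Of 35 listed genes 27 entered, 20 of these were below 0, and 17 had intervals wholly below 0, beside 31.0% of all genes. Of the 27, 2 were called lower (Scarf2 and Sept5) and none was called higher, beside 9.44% and 4.81% of all genes, so the calls were not more frequent than the background. Their median was -0.33, where the median of all genes was 0.02. Hira (ENSMUSG00000022702, 18877037 to 18970309, plus strand), a chaperone that deposits a variant histone outside replication, had 543 counts after knockdown and 786 with the control hairpin (-0.62, -0.78 to -0.46). Crkl, an adaptor of receptor kinase signalling, had 935 against 1244 (-0.50), and Dgcr2, an adhesion receptor gene, 539 against 723 (-0.51). Hira overlaps the predicted gene Gm28539, and Dgcr2 overlaps the predicted gene Gm20518. How reads in such overlaps were counted was not given in the sources used here.

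Some genes of mitochondria or metabolism in the region also had ratios below 0. Tango2, grouped with metabolism by role, was above it at 0.08 with an interval that holds 0 (129 against 115 counts). Slc25a1, the mitochondrial citrate carrier, had 1210 counts after knockdown and 1429 with the control hairpin (-0.33), and Mrpl40, a protein of the mitochondrial ribosome, 781 against 959 (-0.38). Txnrd2, the mitochondrial thioredoxin reductase, had 29 against 49 (-0.84, -1.56 to -0.15). Dgcr8, which binds the primary transcripts of microRNAs for cleavage by Drosha, had 9.27 RPKM after knockdown and 8.86 RPKM with the control hairpin (0.06, -0.03 to 0.16). Ufd1, a cofactor of the p97 segregase in protein degradation, had 606 against 589 counts (-0.05, -0.21 to 0.12). The intervals of these last genes hold 0 and lie wholly above the median of the stretch. Tbx1 itself had 1 count after knockdown and 2 with the control hairpin and did not enter.

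The members were also grouped by role, in lists of 8 to 13 genes whose ranges overlapped and whose differences were not tested. Calls in them are to be read beside the 9.44% of all genes and the 11.8% of all members called lower. All 8 entered signalling genes were below 0, with a median of -0.52 and none called. Besides Crkl they included Litaf, an endosomal protein gene with 634 counts after knockdown and 635 with the control hairpin (-0.09), and Socs1, a feedback inhibitor of cytokine receptors, with 26 against 39 (-0.67, interval holding 0). Among 9 genes of chromatin and transcription 8 were below 0 and 1 was called lower, with a median of -0.46. The 13 genes of cytoskeleton, adhesion and trafficking had 5 lower and a median of -0.51, but 4 members were above 0 (3 with total counts alone), so that their values ran between -1.76 and 0.28. Of 10 genes of mitochondria and metabolism 8 were below 0 (median -0.36, none called).

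The medians of 3 other lists were nearer to 0. Among 10 genes of RNA processing and translation 7 were below 0, with a median of -0.03, values between -0.38 and 0.17 and none called (this median is above 0 with DESeq2 size factors). The 8 genes of DNA replication and repair had 4 below and 4 above 0 (Mcm4 is below 0 with total counts alone), with a median of -0.06 and 1 called lower, Ercc4. The 8 genes of ubiquitin and the endoplasmic reticulum had a median of -0.10 and 1 called lower, Dexi. Of the testis genes only Rimbp3 entered, with 63 against 53 counts, and the protamine genes Prm1, Prm2 and Prm3 were at 0 in both libraries. None of the 9 listed immune cell genes entered, with 14 summed counts after knockdown and 23 with the control hairpin. Abcc1, an efflux transporter gene counted with metabolism, had 1808 against 2008 counts (-0.24).

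**Figure D4:**
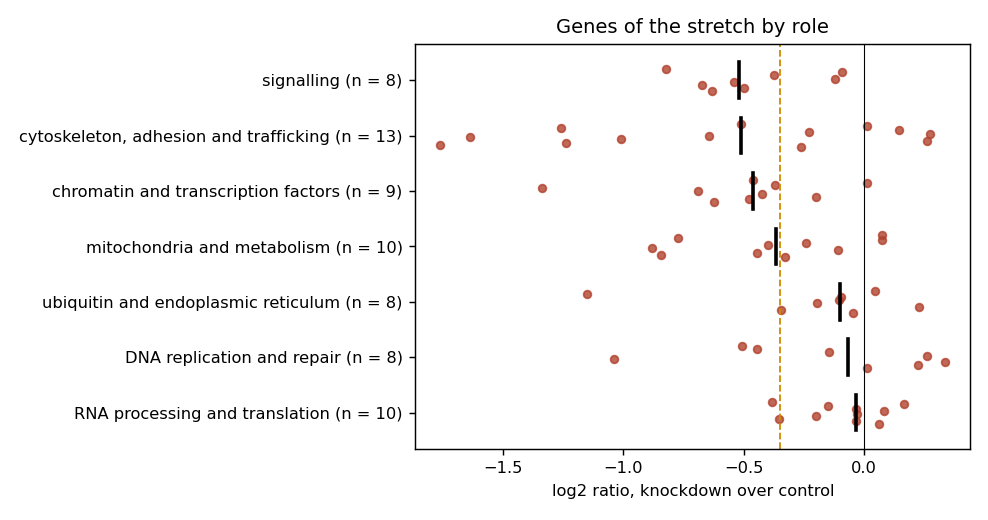
Log2 ratio of knockdown over control (x axis) for the entered genes of 7 role lists (y axis), with each list's median as a black bar and the median of the stretch as a dashed line. Medians run between -0.52 for signalling and -0.03 for RNA processing and translation.

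A group of 6 members was set beside the genes that work with them and mostly lie elsewhere in the genome. Mcm4 had a log2 ratio of 0.01, while 9 other genes of the replicative helicase had a median of 0.32, with 8 of 9 above 0 and none called. The most abundant of them, Mcm5 and Mcm7, had 8460 against 7001 and 8322 against 6854 counts. Cdc45 stood at 0.23, closer to the median of the same list. Prkdc stood at 0.34, beside a median of 0.45 for 6 genes of end joining, of which Xrcc5 had 3895 counts after knockdown and 2559 with the control hairpin and Xrcc6 2355 against 1451. None of these 6 was called.

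The widest gaps were those of Hira and Ercc4, which follows in part from their having the lowest ratios of this group. Hira, at -0.62, lay below all 4 listed genes of its complex (median 0.18), of which Asf1a had -0.60 and the others were above 0, among them the abundant Ubn2 (3450 against 3030 counts) and Cabin1 (2444 against 1828). Ercc4, at -1.04, lay below all 12 listed genes of nucleotide excision repair (median 0.10, none called), of which Ddb1 had 13512 against 13376 counts and Rad23b 12044 against 10525. Dgcr8, at 0.06, was the exception, with 6 of 9 microRNA processing genes below it and a list median of 0.01, and the abundant helicases Ddx5 and Ddx17 had 0.03 and 0.15. In all, 5 of the 6 members were below the median of their partners, by 0.09 to 1.14 log2 units. The stretch was taken up with its low ratio already known, so this tally is not separate from that choice. Mcm4 and Cdc45 were also set beside the same list.

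**Figure D5:**
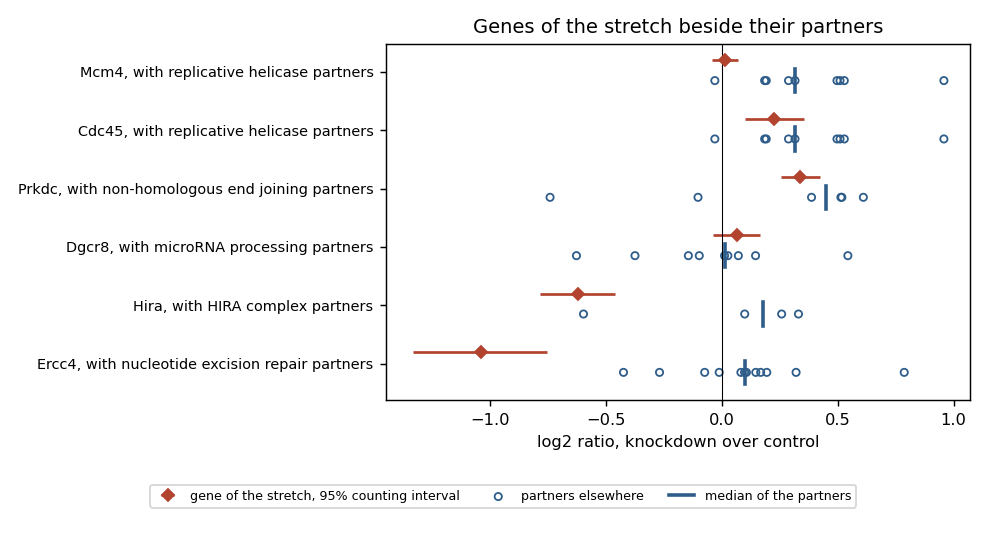
Log2 ratio of knockdown over control (x axis) for 6 genes of the stretch (diamonds, with 95% counting intervals) above the partners listed for each (circles, with a bar at their median). Ercc4 and Hira lie left of all their partners, Mcm4, Cdc45 and Prkdc left of the partners' median, and Dgcr8 right of it.

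Members that start beside each other on opposite strands were compared as pairs. There were 10 pairs of protein-coding members whose start sites lay within 1 kb on opposite strands. In 4 pairs both genes were below 0, in 2 both were above 0 and in 4 they had opposite signs, where ratios between 0 and 0.12 turn negative with total counts alone and those between -0.04 and 0 turn positive with DESeq2 size factors. The difference within a pair had a median of 0.25 log2 units, and the counting intervals overlapped in 7 pairs and lay apart in 3, which were Mcm4 and Prkdc (0.01 and 0.34), Ranbp1 and Trmt2a (-0.23 and -0.03) and Marf1 and Nde1 (0.08 and -0.26). Cdc45 and Ufd1 had 0.23 and -0.05, and Mrpl40 and Hira -0.38 and -0.62. Where such pairs overlap, reads cannot be divided between them without strand.

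Start regions of 1 gene from each of 3 of these pairs are shown, to let a pair below 0 on both sides, a pair with intervals apart and a pair of opposite signs be read beside each other. They come from RefSeq (GRCm38.p6, minus strand, 250 bases before to 50 after the start of the gene named), and capitals mark the GC box GGGCGG and the CCAAT box CCAAT, each searched on both strands. No marked motif overlaps another in these windows. The window of Mrpl40, the partner of Hira, is chr16:18876588-18876887, that of Ranbp1, the partner of Trmt2a, chr16:18248645-18248944, and that of Cdc45, the partner of Ufd1, chr16:18811923-18812222. The annotated start of Trmt2a (18248679) lies inside the window of Ranbp1, and those of Hira (18877037) and Ufd1 (18811779) lie outside the windows of their partners. For Mrpl40 the GENCODE start that defined its pair is 18876862 and differs from the RefSeq start. Most of the Mrpl40 window therefore lies inside the GENCODE gene.
Mrpl40: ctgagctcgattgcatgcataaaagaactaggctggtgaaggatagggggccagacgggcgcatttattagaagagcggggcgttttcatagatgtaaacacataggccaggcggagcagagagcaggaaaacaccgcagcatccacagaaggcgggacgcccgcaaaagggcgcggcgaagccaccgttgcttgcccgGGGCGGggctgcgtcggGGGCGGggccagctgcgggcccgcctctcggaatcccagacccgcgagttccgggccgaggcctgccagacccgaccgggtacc
Ranbp1: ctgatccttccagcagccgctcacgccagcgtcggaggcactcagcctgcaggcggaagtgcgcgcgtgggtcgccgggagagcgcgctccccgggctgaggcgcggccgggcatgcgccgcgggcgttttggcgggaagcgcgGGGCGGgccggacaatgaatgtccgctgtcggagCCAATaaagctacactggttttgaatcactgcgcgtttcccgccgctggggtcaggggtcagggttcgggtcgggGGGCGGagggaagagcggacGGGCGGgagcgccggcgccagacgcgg
Cdc45: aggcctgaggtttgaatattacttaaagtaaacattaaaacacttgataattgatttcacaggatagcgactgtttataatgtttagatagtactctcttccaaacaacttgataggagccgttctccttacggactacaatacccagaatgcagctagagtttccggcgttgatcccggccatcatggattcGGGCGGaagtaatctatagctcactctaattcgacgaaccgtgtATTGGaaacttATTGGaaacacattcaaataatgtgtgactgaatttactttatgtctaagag
The Mrpl40 window holds 2 GC boxes and no CCAAT box, the Ranbp1 window 3 and 1, and the Cdc45 window 1 and 2. Of the 102 members 70 matched the promoter table, with 88 windows. A GC box was found in 68.2% of these windows, against 35.7% of all 32851 windows of the same length. A CCAAT box was found in 50% and 37.4%. The members had passed the count minimum, whereas all windows were taken without a count filter, so these sets differ in more than position. The median base composition was 62.7% G and C in the members' windows and 52.7% in all. Members with a GC box had a median log2 ratio of -0.27 and those without one -0.30, and for the CCAAT box the medians were -0.34 and -0.19.

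The 9 members other than protein-coding genes had a median of -0.16, with 6 of 9 below 0. Mir301b, the row that was called lower among the 5 miRNA rows, had 11 counts after knockdown and 28 with the control hairpin (-1.44, -2.59 to -0.38). Its hairpin is shown because it is what the row counts, with the 5p arm, mmu-miR-301b-5p, in capitals (RefSeq, chr16:17124400-17124496, minus strand). The 3p arm was not in the reference used here and is not marked.
Mir301b: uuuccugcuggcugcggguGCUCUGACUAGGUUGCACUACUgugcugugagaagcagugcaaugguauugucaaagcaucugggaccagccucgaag
It lies inside 2610318N02Rik, which had 420 against 518 counts (-0.39), and reads of the hairpin cannot be told from those of this host. Libraries of this kind do not capture mature miRNAs, so the counts say nothing of the level of mmu-miR-301b-5p. Mir1306, inside Dgcr8, had 55 against 62 counts (-0.26, interval holding 0).

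Neighbouring parts of chromosome 16 were shifted less. The 44 genes of the first 10 Mb had a median of -0.12 and the 55 genes between 20 and 30 Mb one of -0.18, and 70.5% and 69.1% of them were below 0, beside 77.5% in the stretch. All 344 other genes of the chromosome had a median of -0.14. Their intervals lay wholly below 0 for 43.3% and wholly above 0 for 18.3%. Among 207 windows of 10 Mb with at least 30 genes, the stretch had a median higher than only 6, namely 5 windows of chromosome 14 and 1 of chromosome 2. One of these, chromosome 14 between 40 and 50 Mb, had a median of -0.35 and 77.5% of 40 genes below 0, close to the values of the stretch. On chromosome 14 between 50 and 80 Mb, 251 genes had a median of -0.73 with 29.9% called lower. Their distance between quartiles was 0.64 and 37.1% of their intervals held their own median, close to the 0.58 and 38.2% of the stretch. On chromosome 2 between 10 and 20 Mb, 63 genes had a median of -0.39, but a distance between quartiles of 2.47, with 39.7% called lower and 25.4% of the intervals wholly above 0. With 1 library in each group these differences between stretches were not tested.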

How the data were processed

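RNA sequencing of 46C mouse embryonic stem cells gave 1 knockdown and 1 control library. The authors deposited raw read counts and a length for each gene. The builds mm10 and GRCm38 and the tools HISAT2, featureCounts, Trim Galore and DESeq are named in the submitters' processing notes, without a role or order. Their versions, the annotation release and the strand setting were not given in the sources used here. Per the labels' protocols, total RNA went into an Illumina TruSeq kit. GENCODE M21 gene lines (GRCm38) matched 46488 of 46983 identifiers, and the 495 others entered the library sizes.

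TMM factors (knockdown 0.960, control 1.04) came from edgeR 4.0.16 in R 4.3.3, and ratios and Clopper-Pearson intervals from Python 3.11.15 with scipy 1.17.1, numpy 2.4.6 and pandas 2.3.3. Rows entered at a count of 25 in either library. A count of 0 was set to 3. Reads without molecular identifiers are not independent molecules, so intervals cover counting error only. Of 228 rows in the stretch, 126 did not enter, 64 of them at 0 in both libraries. Of the members 93 are protein-coding, 5 miRNA, 2 lincRNA, 1 antisense and 1 unclassified rows, and 75 overlap another annotated gene. The calling code was tested on simulated data.

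Members and gene lists were chosen with earlier results of these data known. Genes named by rule are the 6 lowest and 6 highest called members by the nearer bound of the interval, leaving out predicted models (which left no higher one), the 6 with the largest counts, a set taken by function whatever its values, and the 2 most abundant genes of partner lists without calls. Other members named were chosen after their values were seen. The partner Asf1a and the markers Des and Dcn were also named after their values were seen. Some genes of the rule and 1 partner list are not reported here. Alternatives were size factors of DESeq2 1.42.0, scaling by total counts, other count minimums and fold thresholds, a prior count of 2, centring in 20 level bins, protein-coding or non-overlapping members alone, and moved windows. Figures were drawn with matplotlib 3.10.9.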

Additional observations from a re-analysis of the deposited data

How the results depend on the processing

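The median log2 ratio of the members stayed below 0 under all 11 alternatives tried, between -0.46 with total counts alone and -0.25 with a count of 100 in either library (78 members). It was -0.31 with DESeq2 size factors, -0.36 after centring by expression level and -0.34 where the mean of the scaled counts, which favours neither library, had to reach 25. Total counts alone moved the median of all genes by -0.12. The members stood 0.37 below all genes with that scaling, with TMM and with DESeq2 size factors. This difference could not change, because such scaling adds the same amount to every log2 ratio. Of the 12 members called lower, 6 were left with a count of 100 in either library, by construction among fewer genes. They were 7.69% of the 78 members, beside 6.68% of 12178 genes at that minimum. With a 1.5-fold threshold 25 members (24.5%) were called lower, beside 16.3% of all genes. The 1 member called higher was not called with total counts alone, with a count of 100 or among protein-coding members, giving 0 each time. Of the 30 members taken by the naming rule, 2 lost their call with DESeq2 size factors (Ercc4 and Pkp2), 12 moved beyond their counting interval with total counts alone, as scaling shifts all genes alike, and none with an interval that excluded 0 changed direction. Mcm4 and Dgcr8 had -0.10 and -0.05 with total counts alone. No paired analysis was possible because there was 1 library in each group, and no library could be left out. Depth limits the members of fewest counts, such as Mir301b and Socs1, whose intervals span more than 1 log2 unit.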
